A study of Mus musculus with 12 samples.

Results

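The 34 interferon-stimulated genes described here were examined for open chromatin in bone marrow-derived macrophages, the macrophages grown in culture from mouse bone marrow. They were taken as a named list out of 20667 autosomal genes, and that choice was made with earlier results of these data known. Of the 144562 autosomal regions in which a peak was called, 270 lay within 20 kb of these genes. The macrophages were labelled knockout (KO) or wild type (WT) for Baf60a, the product of Smarcd1 and a component of the nucleosome-remodelling complex SWI/SNF. In the ApoE KO cohort, KO cells carried floxed Baf60a alleles with Lyz2-Cre, a Cre recombinase expressed in myeloid cells, and WT cells carried the floxed alleles without Cre. Cells of both genotypes in this cohort lacked ApoE. In the Omni-ATAC cohort the labels give KO or WT and no alleles or ApoE status. Each genotype was tested with oxLDL (oxidised low-density lipoprotein, a modified particle that macrophages take up and store as cholesterol), at 50 µg/ml over 48 h, and untreated.

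Type I interferons signal through JAK kinases to a complex containing STAT2 and IRF9 that binds the interferon-stimulated response element (ISRE) in the promoters of its target genes. Interferon gamma acts through a different promoter element, called GAS. The products of these genes sense foreign nucleic acid, block steps of viral replication, attach the ubiquitin-like protein ISG15 to other proteins, or damp the response. Macrophages keep a low tonic expression of many of them and raise it sharply on stimulation.

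ATAC-seq, in which a transposase inserts adapters into accessible DNA, gave 1 list of called peaks per library. The Omni-ATAC cohort had 1 library in each of its 4 groups and lists of 82177 to 141441 peaks. The ApoE KO cohort had 2 libraries in each of its 4 groups and lists of 24397 to 44524 peaks. Nothing in the labels says that the 2 libraries came from separate animals, so p-values measure the spread between libraries, which may be technical. With both cohorts in 1 model, that spread also holds differences between the cohorts in the effects of genotype and oxLDL. The lists hold no reads, so sequencing depth is unknown. Smarcd1 had a peak centred no more than 1 kb from its start or end in 12 of 12 libraries, KO and WT alike. Which exons the deletion removes is not stated in the labels, so that peak does not check the genotype. Macrophage markers had such a peak in 100% of 10 genes in the Omni-ATAC cohort and in 92.5% in the ApoE KO cohort, on average over libraries. The shares were 50% and 0% for 4 B cell markers, 31.2% and 3.12% for 4 T cell markers, 25% and 25% for 4 neutrophil markers, 50% and 4.17% for 3 erythroid markers, and 50% and 12.5% for 4 dendritic cell markers.

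The sequences below show what the promoters of the named genes hold at the element through which interferon acts. Promoter windows ran from 250 bases before to 50 bases after each annotated start (RefSeq, GRCm38.p6, the assembly of mm10). They were in the table for 25 of the 34 genes, with 32 windows in all. The ISRE was searched on both strands as GAAA, any 2 bases, GAAA. Capitals mark the matches, with 25 bases on each side.
Isg15, chr4:156200850-156200921, minus strand: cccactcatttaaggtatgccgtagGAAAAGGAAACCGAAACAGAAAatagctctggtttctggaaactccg
Ifit3, chr19:34583348-34583441, plus strand: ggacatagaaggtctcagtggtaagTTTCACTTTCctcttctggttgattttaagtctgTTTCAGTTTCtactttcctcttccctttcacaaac
Bst2, chr8:71537562-71537627, minus strand: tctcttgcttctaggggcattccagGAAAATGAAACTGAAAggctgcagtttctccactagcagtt
Oas3, chr5:120777700-120777759, minus strand: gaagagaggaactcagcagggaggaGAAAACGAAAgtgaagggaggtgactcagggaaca
Rsad2, chr12:26456538-26456597, minus strand: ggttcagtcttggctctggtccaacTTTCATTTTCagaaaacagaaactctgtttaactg
Gbp2, chr3:142620579-142620638, plus strand: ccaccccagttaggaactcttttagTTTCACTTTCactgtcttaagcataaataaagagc
Gbp5, chr3:142496744-142496803, plus strand: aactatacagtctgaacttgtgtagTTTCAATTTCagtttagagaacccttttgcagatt
Gbp7, chr3:142530258-142530317, plus strand: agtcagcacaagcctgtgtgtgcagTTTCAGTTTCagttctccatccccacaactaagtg
Trim30a, chr7:104465195-104465254, minus strand: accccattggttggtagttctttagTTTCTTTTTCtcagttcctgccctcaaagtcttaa

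Isg15 held 3 overlapping matches in 1 run and Bst2 held 2, while Ifit3 held 2 that stood apart. A pair of genes without a match are shown for comparison, each with the 80 bases before the annotated start of its window. For Oasl1 that start (chr5:114923240) lies inside the gene as used for boundary peaks, which begins at chr5:114923143.
Irf9, chr14:55603905-55603984, plus strand: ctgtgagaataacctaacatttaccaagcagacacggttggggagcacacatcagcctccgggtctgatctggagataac
Oasl1, chr5:114923160-114923239, plus strand: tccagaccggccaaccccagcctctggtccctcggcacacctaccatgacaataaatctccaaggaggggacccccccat

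An ISRE match was present in 14 of the 32 windows (43.8%), belonging to 13 genes, against 678 of all 20085 windows (3.38%). The GAS pattern TTCNNNGAA was found in 7 of the 32 windows (21.9%) and in 7.78% of all windows. The AP-1 pattern TGANTCA was found in 7 (21.9%) and in 7.06% of all. A composite PU.1-IRF pattern, GGAA, any 2 bases, GAAA, was found in 3 (9.38%) and in 2.56% of all. Matches to different patterns can share bases, and a match to any pattern is a description of these letters and no evidence of binding.

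**Figure D1:**
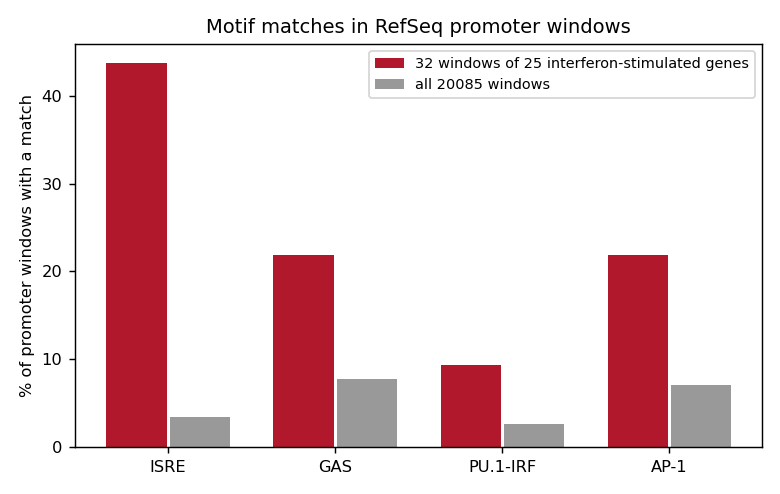
Percent of RefSeq promoter windows with at least 1 match to each of 4 motifs on the y axis, for the 32 windows of 25 interferon-stimulated genes (red) and all 20085 windows (grey). The ISRE stands at 43.8% in the interferon-stimulated genes and 3.38% in all windows.

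A match did not mean that the promoter was called open. A peak overlapped the window in all 12 libraries for 7 of the 14 windows with an ISRE match and for 6 of the 18 without one (50% and 33.3%). Among all windows the shares were 29.8% with a match and 38.5% without one. Together that was 13 of 32 (40.6%), against 38.2% of all promoter windows. The promoter of Isg15, with its 3 matches, was overlapped by a peak in 2 of 12 libraries, both from untreated Omni-ATAC cells. The windows of Gbp7, Rsad2, Ifih1, Ifit1, Stat2 and Trim30a held a match and were overlapped by a peak in 12 of 12. Herc6, Xaf1 and Irf1 had no ISRE match and were also open in 12 of 12. Oasl1 and Oasl2 had none, and their windows were overlapped in 4 of 4 Omni-ATAC and 0 of 8 ApoE KO libraries.

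Most of the genes had accessible chromatin at a boundary in macrophages of both genotypes, untreated and given oxLDL. A peak centred within 1 kb of the gene's start or end, called a boundary peak here, was present in all 12 libraries for 20 of the 34 genes (58.8%), against 39.8% of all autosomal genes. Between 94.1% and 100% of the genes had one in an Omni-ATAC library, where all genes stood at 59.3% to 66.1%. In the ApoE KO libraries the range was 64.7% to 91.2%, where all genes stood at 44.6% to 52.2%. The lowest of these, 64.7%, belonged to the shortest list, from WT cells given oxLDL.

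The rank of their boundary peaks was then set beside that of all genes. To compare rank, each cohort's lists were shortened to their best-scoring peaks at equal length, and each peak was given its score percentile within its library, from 0 for the weakest to 100 for the strongest. With genes that had no boundary peak counted as 0, the median percentile was 79.5 for the interferon-stimulated genes and 45.9 for all genes in the Omni-ATAC cohort, and 32.4 and 0.206 in the ApoE KO cohort. Among only the genes that had a boundary peak, the best peak of the interferon-stimulated genes had a median percentile of 79.3 to 81.5 per library in the Omni-ATAC cohort, and that of all genes 79.0 to 86.0, with overlapping ranges. In the ApoE KO cohort the medians were 49.6 to 62.6 for the interferon-stimulated genes and 70.0 to 74.1 for all genes, and these ranges did not overlap. Neither gap was tested. As the deposited fold enrichment shows, these peaks ranged widely in height. The median over the 8 ApoE KO libraries was 10.1 for the best boundary peak of Trim30a and 2.86 for that of Zbp1.

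**Figure D2:**
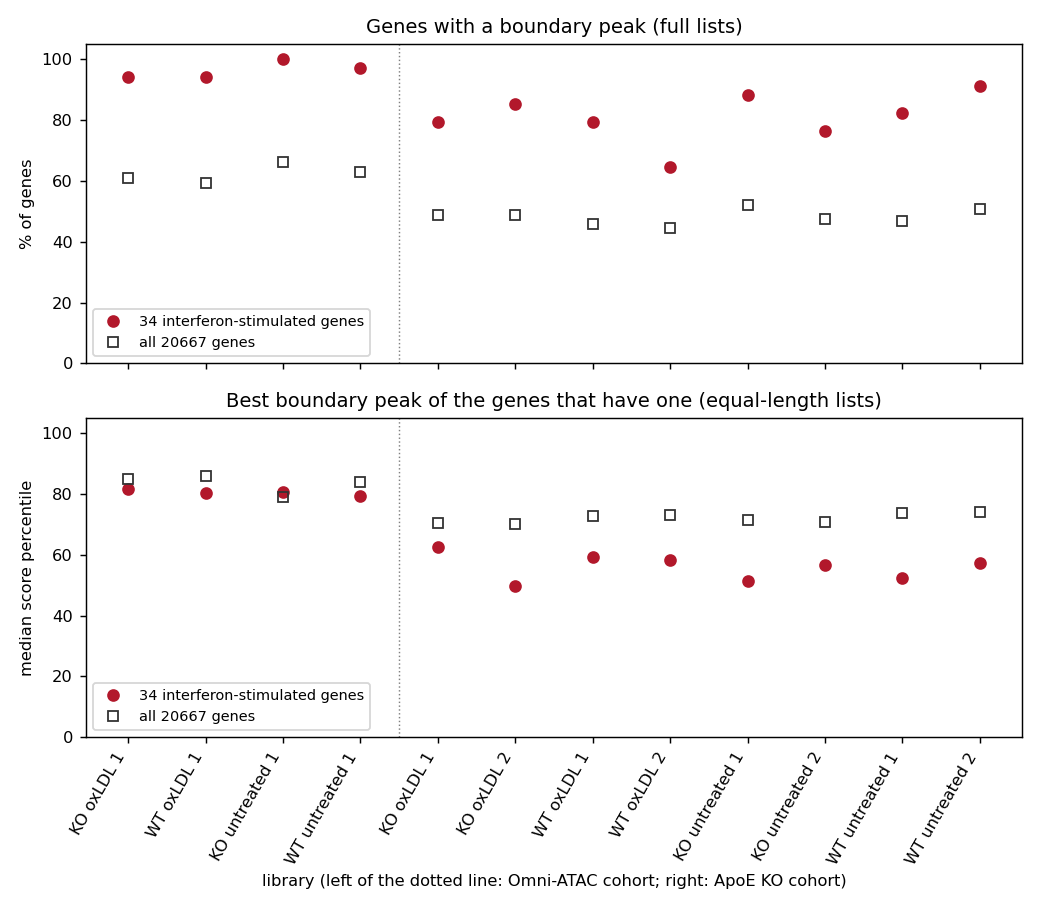
Top, percent of genes with a boundary peak in each of the 12 full lists, for the 34 interferon-stimulated genes (red) and all 20667 genes (open squares). Bottom, median score percentile of the best boundary peak among genes that have one, in equal-length lists. The red points lie above the squares in every library at the top, and below them in all 8 ApoE KO libraries at the bottom.

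Among the transcription factors, Stat2, Irf9 and Irf1 were open in every library and Irf7 was not. STAT2 and IRF9 form the DNA-binding complex of type I interferon, and Stat2 had the highest boundary percentile of all 34 genes in the Omni-ATAC cohort, with a mean of 98.5 ± 1.35 (SD, n = 4). Its mean in the ApoE KO cohort was 82.1 ± 5.03 (SD, n = 8). IRF1, which drives many genes induced by interferon gamma, averaged 88.5 ± 3.24 in the Omni-ATAC cohort and 64.0 ± 11.8 in the ApoE KO cohort. Irf7 encodes the factor that amplifies interferon production, and its boundary region (mm10, chr7:141265860-141266652) was called in 4 of 4 Omni-ATAC libraries and 2 of 8 ApoE KO libraries. In equal-length lists Irf7 stood at 48.0 in KO and 59.0 in WT cells given oxLDL, and at 33.5 in KO and 57.6 in WT untreated cells, all Omni-ATAC. Of the 8 ApoE KO libraries, 1 untreated WT library reached 23.0 and the other 7 were at 0.

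The 4 nucleic acid sensors had a boundary peak in 12 of 12 libraries. Ifi204, of the family that binds DNA, was the strongest of them in the ApoE KO cohort, at 93.5 ± 3.26 (SD, n = 8), and in that cohort it was second to Trim30a among the 34 genes. Ifih1, which encodes the double-stranded RNA sensor MDA5, averaged 70.8 ± 17.6 there, and Dhx58, encoding its partner LGP2, 34.8 ± 16.0. Zbp1, whose product binds Z-form nucleic acid and can start cell death, averaged 79.6 ± 4.67 in the Omni-ATAC cohort and 9.84 ± 8.50 in the ApoE KO cohort.

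The 13 antiviral effectors differed widely in the ApoE KO cohort. Boundary peaks were called in every library for 5 of them: Ifit1, Mx2, Isg20, Rsad2 and Cmpk2. Mean percentiles in the ApoE KO cohort ran from 0 to 88.5, with a median of 25.1. Mx2 was the highest, at 88.5 ± 5.18 (SD, n = 8). RefSeq annotates Mx1 and Mx2 as transcribed pseudogenes in this assembly, since common laboratory strains carry defective alleles. Mx1 stood at 67.6 in KO and 76.2 in WT cells given oxLDL, and at 75.2 in KO and 75.5 in WT untreated cells, in the Omni-ATAC cohort. Its ApoE KO values were 1.43 and 0.719 in KO cells given oxLDL and 38.9 in 1 untreated WT library, and the other 5 libraries were at 0. Of the IFIT proteins, IFIT1 binds viral RNA that lacks a complete host cap. Ifit2 had a boundary peak in 11 of 12 full lists, missing in 1 WT library given oxLDL, and Ifit3 in 9 of 12. In equal-length lists Ifit3 was at 63.9 to 72.3 in the 4 Omni-ATAC libraries. Its ApoE KO values were 0 and 0 in KO and 0 and 9.3 in WT cells given oxLDL, and 17.2 and 0 in KO and 0.648 and 38.5 in WT untreated cells.

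Oas3, one of the 2-5A synthetases that make the second messenger activating RNase L, and the related Oasl2 had the lowest ApoE KO means of the effectors. Oas3 stood at 65.0 in KO and 67.6 in WT cells given oxLDL and at 54.9 in KO and 60.6 in WT untreated cells of the Omni-ATAC cohort, and at 0 in all 8 ApoE KO libraries. In the full lists its boundary region (chr5:120777508-120777942) was called in 4 of those 8. Oasl2 had 72.2 ± 5.18 (SD, n = 4) in the Omni-ATAC cohort and a single non-zero value, 5.2 in a WT library given oxLDL, in the ApoE KO cohort. Bst2, which encodes the tether that holds budding virions at the cell surface, averaged 85.7 ± 3.46 and 20.7 ± 16.5 in the Omni-ATAC and ApoE KO cohorts.

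The regulators held both ends of the range. Trim30a, a negative regulator of inflammatory signalling in mice, and Herc6, the mouse enzyme that attaches ISG15 to its targets, had high ApoE KO means, 95.4 ± 2.21 and 90.1 ± 2.32 (SD, n = 8). Isg15 itself had a boundary peak in 2 of 12 full lists, both untreated Omni-ATAC, and in equal-length lists in 1, untreated WT at 8.9. Usp18, whose product removes ISG15 and blocks the receptor, averaged 58.2 ± 10.3, and Xaf1, a promoter of apoptosis, 62.2 ± 6.53 in the ApoE KO cohort. Parp14, a mono-ADP-ribosyltransferase, averaged 11.6 ± 8.81 there.

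Guanylate-binding proteins are large GTPases that attack pathogen-containing vacuoles, and 4 of them share 1 cluster on chromosome 3. In the ApoE KO cohort Gbp7 averaged 83.8 ± 9.46, Gbp3 77.0 ± 9.49, Gbp2 38.4 ± 19.6 and Gbp5 0.844 ± 1.84 (SD, n = 8 each). Gbp5 was at 59.97 to 89.7 in the 4 Omni-ATAC libraries, from a peak at the end of the gene and not at its start. In the full lists of those libraries the region at its end (chr3:142521280-142521725) was at 63.3 to 94. The region at its start (chr3:142496646-142497729) was at 17.3 to 39.4. Of the remaining genes, Ifi35 had a boundary peak in 11 of 12 full lists. Rtp4 had one in the 4 Omni-ATAC libraries alone, and Ifi44 in 1 library, untreated Omni-ATAC KO. In equal-length lists Rtp4 stood at 6.30 to 12.5 in the 4 Omni-ATAC libraries by peak centre. By any overlap of a peak with the 1 kb flank it stood at 44.0 to 67.4 there. The RefSeq model of Rtp4 spans 94004 bp, so its boundary may not be the start in use in these cells.

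**Figure D3:**
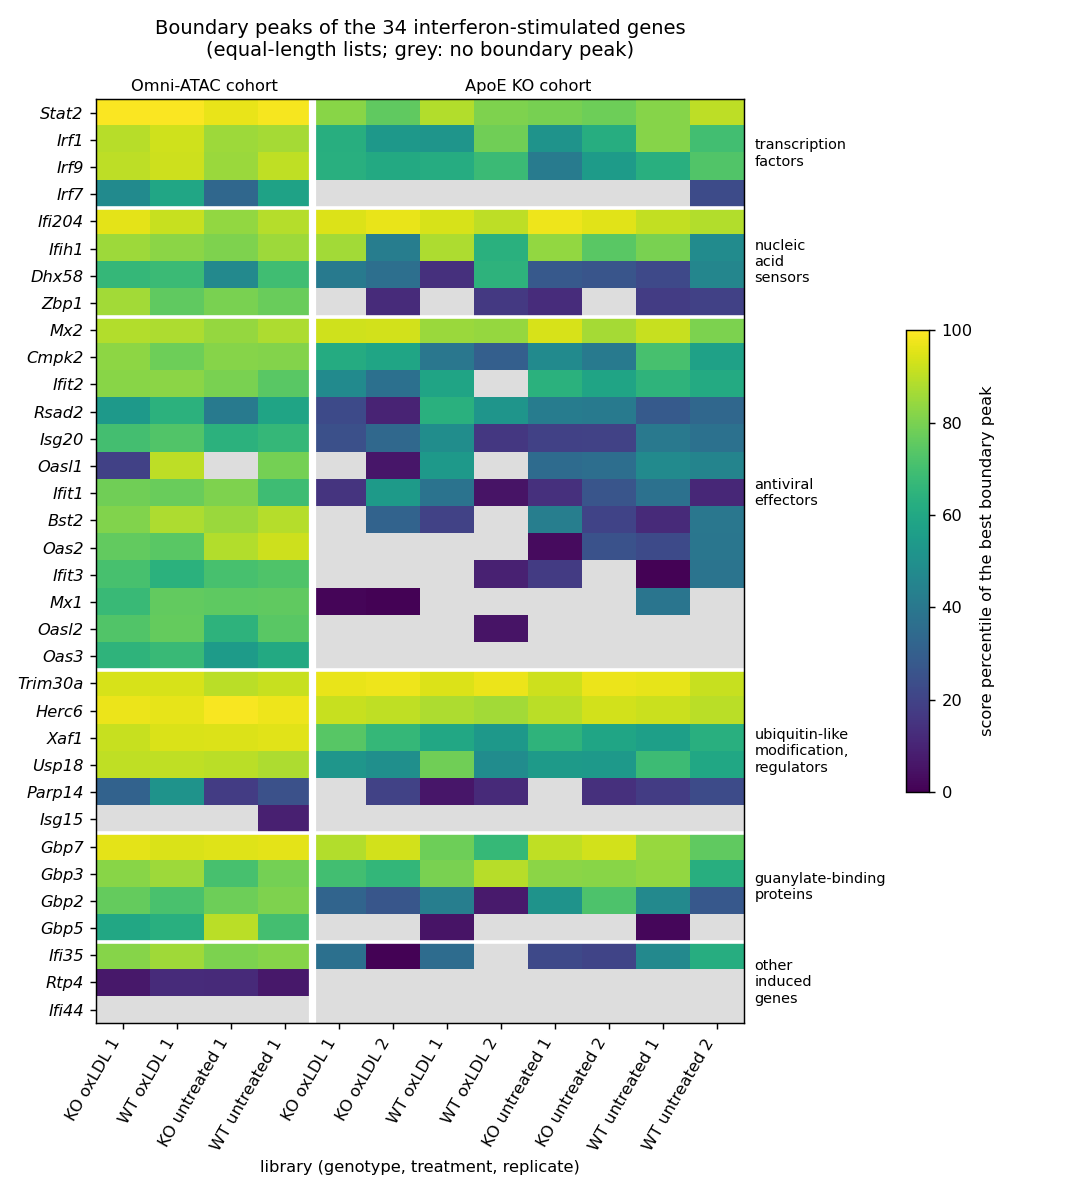
Score percentile of the best boundary peak (colour, 0 to 100, equal-length lists) for 34 interferon-stimulated genes (rows, grouped by role) in 12 libraries (columns), with grey for no boundary peak. Trim30a, Herc6, Ifi204, Mx2 and Gbp7 are bright in both cohorts, and Oas3, Rtp4, Isg15 and Ifi44 are grey throughout the ApoE KO cohort.

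Of the 34 genes, 30 had a higher mean percentile in the Omni-ATAC cohort than in the ApoE KO cohort, 3 a lower one (Mx2, Ifi204 and Trim30a), and Ifi44 was at 0 in both. The median difference was 29.4 percentile points. All genes shifted the same way, with a median percentile of 45.9 in the Omni-ATAC cohort and 0.206 in the ApoE KO cohort. Percentiles were taken within lists of 82177 and 24397 peaks, and the same rank gives a higher percentile in the longer list. The direction is therefore not particular to these genes. The cohorts differ in protocol, cryopreservation, caller, list length and labelled background, and these cannot be told apart.

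Accessible DNA near the genes was not limited to their boundaries. Of the 270 regions within 20 kb, 46 lay at a boundary, 68 inside a gene and 156 outside. Calls in all 12 libraries were made for 56 of the 270 (20.7%), against 12% of all regions, which were not limited to regions near genes. They comprised 20 boundary, 8 inside and 28 outside regions. Whether outside regions lay at the starts of other genes was not examined, so they are not assigned to the genes named here. Isg15 showed a strong neighbour beside a weakly called promoter. A region 1780 bp downstream of the gene (chr4:156197002-156198286) was called in 12 of 12 libraries, with a mean full-list percentile of 90.3. Trim30a had a region inside the gene (chr7:104445681-104446858) in 12 of 12, with a mean of 94.9, over its second annotated start. Others in 12 of 12 lay 12408 bp outside Irf9 (mean 94.9), 6444 bp outside Irf1 (mean 90.7) and 3783 bp outside Rsad2 (mean 83.8), on the side of its neighbour Cmpk2. Regions called in 4 of 4 Omni-ATAC and 0 of 8 ApoE KO libraries numbered 42 (15.6%), against 15.7% of all regions. Windows overlap for Ifit2 and Ifit3, Oas2 and Oas3, Oasl1 and Oasl2, Rsad2 and Cmpk2, and for Gbp3, Gbp5 and Gbp7, so 11 of the 34 genes share peaks with another.

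Loss of Baf60a was then compared with WT, over both treatments and cohorts in 1 limma model. No interferon-stimulated gene passed an adjusted p of 0.05 (Benjamini-Hochberg over all genes tested). For the boundary percentile 31 of the 34 genes could be tested, and 0 of 11163 genes passed (0%). For the number of peaks within 20 kb, on log2(peaks + 0.5), 33 could be tested, and 0 of 15297 genes passed (0%). Isg15, Ifi44 and Rtp4 missed the percentile minimum, and Ifi44 the peak minimum. The percentile minimum was a mean of at least 10 over all 12 libraries. Irf7, Ifit3, Mx1, Oas3, Oasl2, Gbp5 and Zbp1 reached it only through the Omni-ATAC libraries. Their ApoE KO means were 0 to 9.84, so their fitted differences rest largely on single Omni-ATAC libraries and values at or near 0. The peak minimum was a mean of at least 1 over all 12 libraries. Oas2 and Zbp1, with ApoE KO means of 0.5 and 0.625 peaks, reached it only through the Omni-ATAC libraries. At an unadjusted p under 0.05, 1 of the 31 had a higher boundary percentile in KO and 3 a lower one, against 1.18% and 12.4% of all genes tested. No gene of the 33 had an unadjusted p under 0.05 for peak number in either direction, against 2.18% higher and 4.63% lower among all genes tested. The median difference in boundary percentile was -3.09 points over the 31 genes and -2.40 over all genes. In full lists, which were on average longer in KO cells, the median was 3.61 points over the 31 genes and 1.13 over all genes.

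Gbp7 had the smallest p. In the ApoE KO cohort it stood at 88.5 and 93.3 in KO and 78.0 and 67.0 in WT cells given oxLDL, and at 90.3 and 93.1 in KO and 84.6 and 75.4 in WT untreated cells. KO and WT libraries of that cohort did not overlap under either treatment. In the Omni-ATAC cohort, Gbp7 was at 96.0 in KO and 94.5 in WT cells given oxLDL and at 95.0 in KO and 95.8 in WT untreated cells, which is nearly level. The fitted difference was 10.1 points (SE 3.47), with an adjusted p of 0.294 by limma.

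Irf9 pointed the other way. Its ApoE KO values were 63.2 and 60.7 in KO and 62.1 and 68.0 in WT cells given oxLDL, and 41.5 and 54.8 in KO and 63.0 and 72.7 in WT untreated cells. In the Omni-ATAC cohort it was at 90.2 in KO and 92.4 in WT cells given oxLDL and at 84.9 in KO and 90.4 in WT untreated cells. The genotypes were apart in untreated cells and overlapped with oxLDL in the ApoE KO cohort. The fitted difference was -8.89 points (SE 3.19, adjusted p = 0.312 by limma). The 4 transcription factors all had differences below 0, from -4.60 to -9.68 points, as did 72.2% of all genes tested, and none passed. The -9.68 belonged to Irf7, which had a value above 0 in only 1 of 8 ApoE KO libraries. In full lists the 4 factors ran from -1.14 to -8.94 points, with Irf9 at -1.25.

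Rsad2, which encodes the antiviral enzyme viperin, differed by -14.9 points (SE 5.67, adjusted p = 0.332 by limma), and by -2.93 points in full lists. Its ApoE KO values were 22.6 and 9.9 in KO and 63.7 and 52.0 in WT cells given oxLDL, and 42.0 and 41.3 in KO and 28.4 and 33.3 in WT untreated cells. The order of the genotypes in the ApoE KO cohort was therefore reversed between the treatments. In the Omni-ATAC cohort KO was below WT under both, at 54.0 in KO and 64.3 in WT cells given oxLDL and at 41.3 in KO and 58.5 in WT untreated cells.

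Oasl1, an inhibitor of Irf7 translation in mice, had the largest fitted difference, -36.7 points (SE 13.8, adjusted p = 0.328 by limma), and the size of that value depended on where peak centres fell. Its region chr5:114921600-114922676, upstream of the gene, was called in 12 of 12 libraries, with centres close to the 1 kb limit. Counted by centre, Oasl1 was at 19.4 in KO and 90.1 in WT cells given oxLDL and at 0 in KO and 79.3 in WT untreated cells of the Omni-ATAC cohort. Counted by any overlap with the 1 kb flank, the same libraries gave 80.7 in KO and 90.1 in WT cells given oxLDL and 84.0 in KO and 79.3 in WT untreated cells. The untreated ApoE KO libraries gave the same values by either rule, 34.8 and 35.97 in KO and 47.8 and 45.0 in WT cells, which did not overlap. With oxLDL they were at 0 and 6.10 in KO and 54.2 and 0 in WT cells by centre, and at 12.5 and 6.10 in KO and 54.2 and 0 in WT cells by overlap. By overlap the fitted difference was -10.4 points (adjusted p = 0.624 by limma).

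Peak number gave small differences. Ifit3 had the smallest p among the 33 genes, with a difference of -0.44 (SE 0.21, adjusted p = 0.716 by limma) on the log2 scale. It had 2 and 2 peaks within 20 kb in KO and 3 and 4 in WT cells given oxLDL, and 3 and 2 in KO and 6 and 4 in WT untreated cells, in the equal-length lists of the ApoE KO cohort. The Omni-ATAC libraries had 7 in KO and 5 in WT cells given oxLDL and 7 in each genotype of untreated cells. Oasl1 and Parp14 followed at -0.33 (SE 0.17) and -0.36 (SE 0.21), and the positive end was held by Ifih1 at 0.20 (SE 0.19). Of the 270 regions, 0 were called in at least 5 of 6 KO and at most 1 of 6 WT libraries, against 0.0380% of all regions, and 0 the other way round, against 0.00138%.

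**Figure D4:**
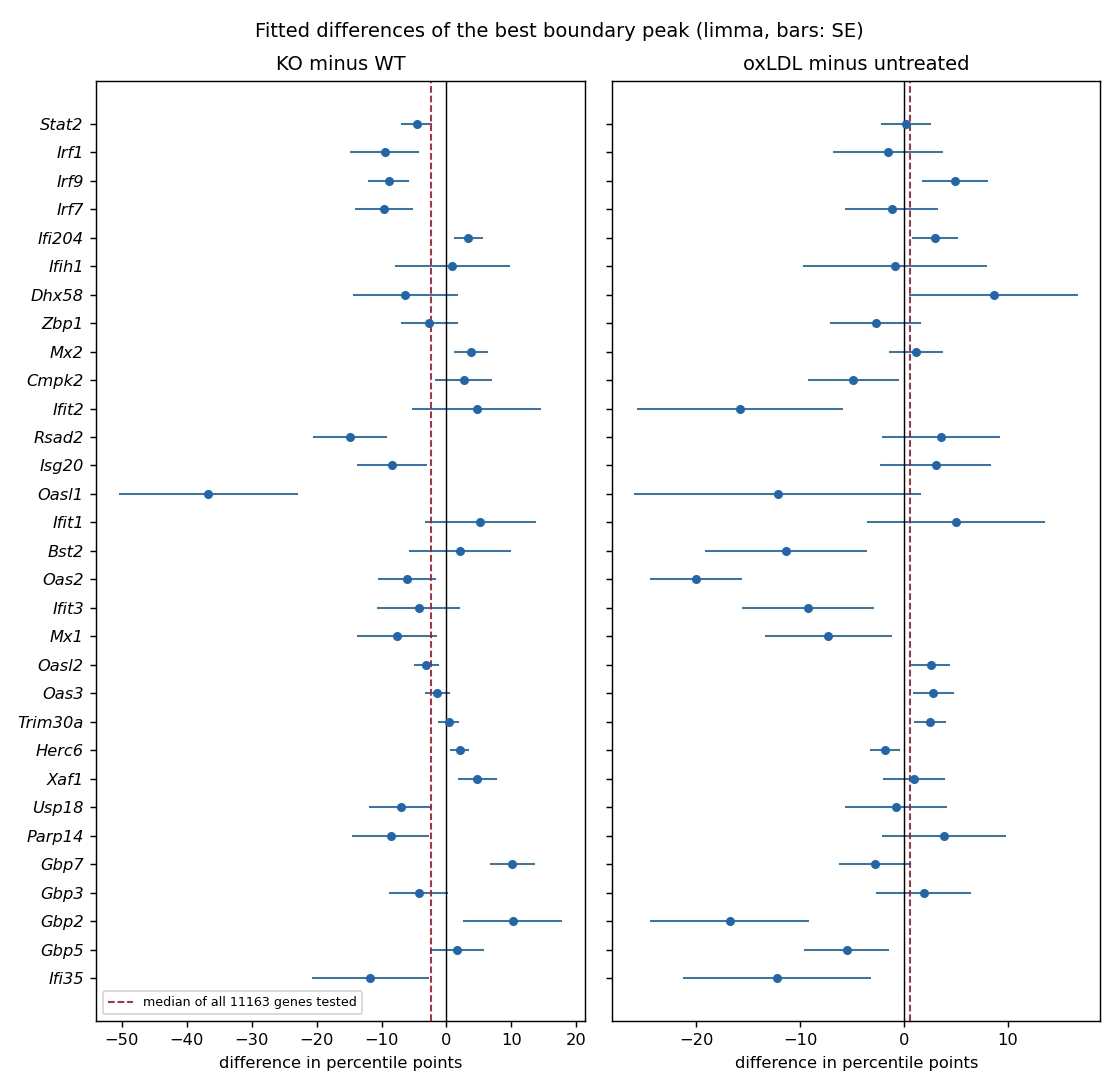
Fitted differences of the best boundary peak in percentile points (x axis) for the 31 interferon-stimulated genes tested (y axis), KO minus WT on the left and oxLDL minus untreated on the right, with bars for 1 SE and a dashed line for the median of all 11163 genes. Gbp7 stands at 10.1 and Oasl1 at -36.7 on the left, and Oas2 at -20.0 on the right.

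The second question was whether 48 h of oxLDL changed accessibility at these genes. By limma, 0 of the 31 interferon-stimulated genes passed the adjusted threshold for boundary percentile, where 0 of 11163 genes did (0%). For peak number 0 of 33 passed, where 1 of 15297 genes did (0.00654%). At an unadjusted p under 0.05, 0 of 31 had a higher and 1 a lower boundary percentile, against 3.73% and 1.52% of all genes tested. For peak number, 0 of 33 were higher and 1 was lower, against 3.28% and 2.32%. The median difference in boundary percentile was -0.86 points over the 31 genes and 0.57 over all genes. In full lists, which were on average shorter with oxLDL, it was -5.51 points over the 31 genes, and 29 of them were below 0, as were 79.5% of all genes tested, whose median was -3.46 points.

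The 1 gene was Oas2 in both measures, another 2-5A synthetase. Its boundary percentile was 0 in all 4 ApoE KO libraries given oxLDL, 2 KO and 2 WT. In untreated cells of that cohort it was at 2.87 and 25.2 in KO and at 22.5 and 39.2 in WT. In the Omni-ATAC cohort it was at 76.0 in KO and 74.6 in WT cells given oxLDL, and at 88.4 in KO and 92.6 in WT untreated cells. Every library given oxLDL was thus below every untreated library of its cohort. The fitted difference was -20.0 points (SE 4.46, unadjusted p = 0.00167, adjusted p = 0.803 by limma). Peak number near Oas2 differed by -0.996 on the log2 scale (SE 0.30, adjusted p = 0.735 by limma), with 0 peaks in the 4 ApoE KO libraries given oxLDL and 1 in each of the 4 untreated ones. When the ApoE KO cohort was fitted alone, this peak number passed (adjusted p = 8.44e-09 by limma). Oas2 averaged 0.5 peaks in that cohort, below the minimum mean of 1, and entered that fit only through its Omni-ATAC libraries. Of the 446 genes passing in that fit, 427 had identical values within every pair of replicates, as Oas2 did. In the full lists the Oas2 boundary region (chr5:120749062-120750343) was called in 4 of 6 libraries given oxLDL and in 6 of 6 untreated ones.

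Its neighbour Oas3, which shares part of the window, had a peak-number difference of -0.76 (SE 0.33, adjusted p = 0.735 by limma). In the equal-length lists of the ApoE KO cohort, Oas3 had 1 and 1 peaks in KO and 1 and 0 in WT cells given oxLDL, and 2 in each of the 4 untreated libraries. Isg15 followed at -0.33 (SE 0.15). A region 2593 bp outside Isg15 (chr4:156202579-156204244) was called in 2 of 6 libraries given oxLDL, both Omni-ATAC, and in 6 of 6 untreated libraries.

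Gbp2 and Ifit2 had the next largest boundary differences below 0, with -16.8 points (SE 7.67) and -15.8 points (SE 9.96), and neither passed. Gbp2 in the ApoE KO cohort stood at 32.2 and 26.9 in KO and 42.6 and 7.1 in WT cells given oxLDL, and at 51.4 and 72.3 in KO and 47.1 and 27.5 in WT untreated cells, so the WT libraries overlapped. Ifit2 stood at 48.0 and 36.9 in KO and 58.5 and 0 in WT cells given oxLDL, and at 63.8 and 58.6 in KO and 65.2 and 61.0 in WT untreated cells. The treatments nearly met within that cohort for Ifit2, at 58.52 in a WT library given oxLDL and 58.56 in an untreated KO library. In the Omni-ATAC cohort Ifit2 was at 82.3 in KO and 82.5 in WT cells given oxLDL and at 79.97 in KO and 74.5 in WT untreated cells. Among differences above 0, the smallest p belonged to Trim30a at 2.52 points (SE 1.58), followed by Irf9 at 4.89 (SE 3.19), and neither passed.

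Of the 270 regions, 1 was called in at most 1 of 6 libraries given oxLDL and at least 5 of 6 untreated ones (0.370%), against 0.0401% of all regions, and 0 the other way round, against 0%. It lay 10495 bp outside Ifit3 (chr19:34599288-34599666) and was called in 1 of 6 libraries given oxLDL, Omni-ATAC KO, and in 5 of 6 untreated ones. It was not separated in lists of equal length. The lists of cells given oxLDL were shorter, with 24397 to 35589 peaks against 29064 to 44524 in untreated cells of the ApoE KO cohort, and the part of list length in these calls was not tested.

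**Figure D5:**
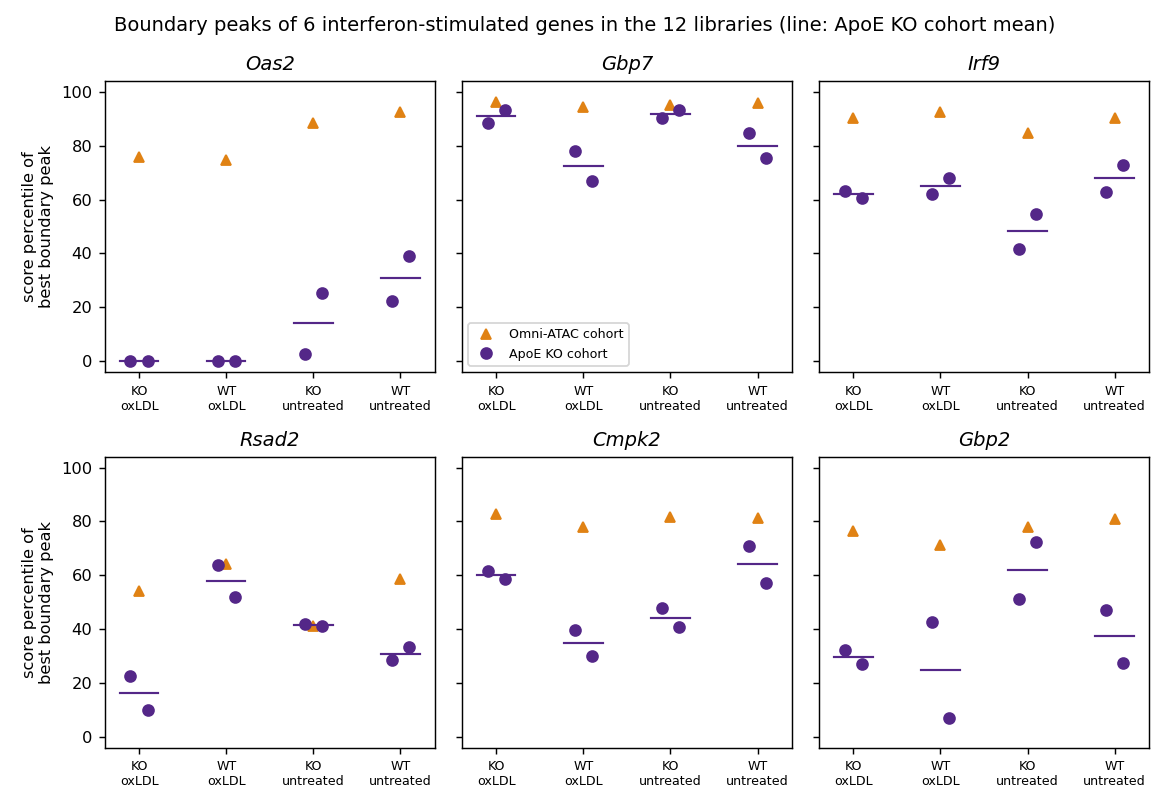
Score percentile of the best boundary peak (y axis, equal-length lists) for 6 interferon-stimulated genes in KO and WT cells, given oxLDL or untreated (x axis), with triangles for the Omni-ATAC cohort, dots for the ApoE KO cohort and a line at the mean of each pair of dots. Oas2 is at 0 in all 4 ApoE KO libraries given oxLDL, and KO dots of Gbp7 lie above WT dots under both treatments.

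The interaction asked whether the difference between KO and WT cells itself changed with oxLDL. No interferon-stimulated gene passed for boundary percentile, where 0 of 11163 genes did (0%), or for peak number, where 1 of 15297 did (0.00654%). At an unadjusted p under 0.05, 1 of 31 genes was higher and 1 was lower for boundary percentile, against 2.43% and 1.47% of all genes tested. The interaction estimate was above 0 for 23 of the 31 genes, with a median of 5.26 points, against 55.0% of all genes and a median of 0.72. For peak number, 14 genes were above 0 and 16 below, with a median of 0. The median boundary estimate over the 31 genes was 1.33 to 8.34 points when 1 library was left out. Without the 3 libraries whose file names carry a lane tag, it was 1.85 points, with 19 genes above 0 and 12 below. Of the genes that reached the percentile minimum only through the Omni-ATAC libraries, Gbp5 was below 0 and the others above. The genes with an unadjusted p under 0.05 were the neighbours Cmpk2 and Rsad2, which are transcribed away from each other and lie 12664 bp apart. Cmpk2, a mitochondrial nucleotide kinase, had a difference of 31.6 points and Rsad2 one of -32.6 points (adjusted p = 0.996 for both by limma). Cmpk2 in the ApoE KO cohort stood at 61.5 and 58.6 in KO and 39.6 and 30.2 in WT cells given oxLDL, and at 47.9 and 40.7 in KO and 71.0 and 57.3 in WT untreated cells. The genotypes did not overlap under either treatment and changed order between them, in the direction opposite to Rsad2. In the Omni-ATAC cohort Cmpk2 was at 82.9 in KO and 77.8 in WT cells given oxLDL and at 81.7 in KO and 81.3 in WT untreated cells.

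The wider pathway was described with lists of 20 signalling genes (receptors, kinases, transcription factors and regulators) and 44 other interferon-induced genes. A boundary peak was called in all 12 libraries for 15 of the 20 (75%) and 23 of the 44 (52.3%), against 39.8% of all autosomal genes. With genes lacking a boundary peak counted as 0, the median best percentile in the ApoE KO cohort was 70.5 for the signalling genes and 27.0 for the other induced genes, beside the 32.4 of the 34 genes and the 0.206 of all genes. None of either list passed for KO against WT or for oxLDL against untreated in either measure. Median KO minus WT differences in boundary percentile were -3.63 points for the 17 signalling genes tested and -1.07 for the 37 other induced genes tested.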

How the data were processed

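ATAC-seq peak lists of 12 macrophage libraries were used, 1 list per library. The submitters' processing notes name MACS3 for the Omni-ATAC cohort and MACS2 for the ApoE KO cohort, with Bowtie2 2.3.4.1, SAMtools 1.2, bedtools 2.28.0 and mm10, and peaks were called per library. Nothing used here states the caller settings or any transposase shift. Each peak carries, as deposited, a whole-number caller score of at least 13, and in the ApoE KO cohort also its fold enrichment and p-value and q-value as -log10. The score was used to rank peaks within a list and the fold as a description; the -log10 values were set against the score only.

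Gene positions came from RefSeq (GRCm38.p6): all autosomal protein-coding genes plus Mx1 and Mx2, which that table lists as transcribed pseudogenes. Equal-length lists kept the best 82177 (Omni-ATAC) or 24397 (ApoE KO) peaks by score. The 2 measures were peaks centred within 20 kb of a gene, as log2(peaks + 0.5) with a mean of at least 1 peak, and the percentile of the best boundary peak, with 0 for none and a mean of at least 10. Both were fitted with limma 3.58.1 in R 4.3.3, with the 4 genotype-by-treatment groups and cohort as terms, and adjusted by Benjamini-Hochberg over all genes. KO versus WT is averaged over treatments and oxLDL versus untreated over genotypes. Regions are full-list peaks merged by 1 bp overlap. The fits were tested on simulated data. Sequences and motifs used RefSeq promoter windows.

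Genes were named by rule: those lacking a boundary peak in 1 or more lists, the 3 smallest p per direction and measure, those with a separated region, and the 5 highest and 5 lowest ApoE KO means; Cmpk2, Dhx58, Gbp3, Ifit1, Irf1, Stat2, Usp18 and Zbp1 were named after their values were seen. The genes, lists and tests were chosen with earlier results of these data known. Alternatives covered list length, pseudocount, filters, window, overlap rule, score threshold, replicate block, cohort, a file-name lane tag and each library left out.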

Additional observations from a re-analysis of the deposited data

How the results depend on the processing

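None of the 34 genes passed an adjusted p of 0.05 by limma under any alternative, except Oas2 peak number in the ApoE KO cohort alone. Oas2 reached the peak minimum only through the Omni-ATAC libraries. Full lists, which differ in length between groups, turned directions: peak number in KO against WT had a median of 0.14 over the genes (0.18 over all genes), with 29 above 0, and oxLDL against untreated -0.23 (-0.24 over all genes), with 30 below; boundary percentiles had medians of 3.61 and -5.51. The 8 fitted values with an unadjusted p under 0.05 kept their sign under every alternative run.

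Over all genes, the numbers passing for KO against WT, oxLDL against untreated and the interaction moved as follows; the causes were not tested, beyond the identical replicate values named for the cohort fitted alone. For peak number they were 490, 446 and 433 in the ApoE KO cohort alone and 235, 242 and 224 without the 3 libraries with a lane tag in the file name. For oxLDL, full lists gave 3, and a 50 kb window, a score threshold of 50 and the replicate block gave 0. For the interaction, those 4 settings and any overlap gave 0. For boundary percentile they were 41, 11 and 8 in the ApoE KO cohort alone and 4, 4 and 4 without the lane-tag libraries. Leaving out 1 library gave 0 to 121, 0 to 100 and 0 to 89 for peak number, and 0 to 64, 0 to 4 and 0 to 5 for boundary percentile, with the highest counts for peak number and for KO against WT percentile without Omni-ATAC KO given oxLDL.

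Replicate numbers gave no sign of pairing in these measures: correlations of same-numbered deviations were -0.0866 to 0.0573. The replicate block gave 0 passing genes in all 6 comparisons. Neither result can tell whether same-numbered libraries shared an animal or a preparation. Separated regions near the genes stayed at 0 for KO against WT in all settings. For oxLDL against untreated they were 0 with equal-length lists, a score threshold of 50, 6 of 6 against 0 of 6, or peaks covering 50% of the region. That count was 1 to 6 when 1 library was left out, reaching 6 without either Omni-ATAC library given oxLDL. Leaving out a library given oxLDL makes the separation easier to meet for any region, near these genes or not. The counts over all regions in those settings are not given here, so the 6 is not a result about these genes. Single libraries of the ApoE KO lists hold 65 to 75 peaks near the genes at equal length, which limits the precision of every value.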
